A study of Mus musculus with 2 samples.

Results

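The kinetochore, spindle and cytokinesis genes are 40 genes, of 32285 listed in each library, whose proteins attach chromosomes to the mitotic spindle, build and move that spindle, and divide the cell at the end of mitosis. They were chosen by name from a list of 40 symbols, and each symbol matched 1 row of both count matrices. Their UMIs (unique molecular identifiers, each standing for 1 captured RNA molecule) were followed in single cells from the pancreas of mice that develop pancreatic tumours, in cells with at least 1 UMI of Top2a and in all cells kept. Top2a, which encodes topoisomerase II alpha and is made from DNA replication to mitosis, is not among the 40.

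The study asked what extra Mettl3, the enzyme that writes N6-methyladenosine into mRNA, does in pancreatic cancer. Single-cell RNA was captured with 10x Chromium 3′ chemistry in 2 libraries of pancreas cells, labelled as epithelial, taken when the mice were 6 weeks old. The EL1 library is from mice on the FVB/N background that carry the SV40 large T antigen and firefly luciferase, each driven by the rodent elastase I promoter, which is active in acinar cells. The WTg library is from the cross of these mice with a CAG-Mettl3 line, in which the ubiquitous CAG promoter drives the Mettl3 open reading frame. Both groups thus carried T antigen and luciferase, and no library without T antigen was analysed here. T antigen is known to bind the retinoblastoma protein and p53, which restrain cell cycle genes. The CAG-Mettl3 line was made in C57BL/6 eggs, so the transgene and the strain background cannot be told apart. How many animals stand behind each library, and of which sex, is not given in the sources used here.

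Each group has a single library, so differences between EL1 and WTg are described and not tested. Levels are given in CPM, a gene's UMIs summed over cells for each 1000000 UMIs of those cells. Intervals are exact at 95% and cover counting error only, not the spread between animals. Since UMIs mark the 3′ end and were not scaled by length, levels are compared between cells and libraries and not between genes.

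After the filter on cells, 1113 EL1 cells and 905 WTg cells were kept, with medians of 26543 and 34836 UMIs per cell. Mettl3 was measured at 15.1 CPM in EL1 and at 66.7 in WTg, the direction that the labels give. Markers of acinar cells (10 genes, digestive enzymes among them) summed to 83585 CPM in the Top2a cells of EL1 and to 89774 in those of WTg, and all but 1 of the 780 Top2a cells carried at least 10 UMIs over at least 3 of them. Among cells without a Top2a UMI, 94.7% in EL1 and 92.8% in WTg passed this acinar mark too. Neuroendocrine markers reached the same mark in 57.9% of Top2a cells in EL1 and 68.6% in WTg, beside 45.2% and 45.8% of other cells. Ductal markers reached it in 53.7% and 56.0% of Top2a cells, beside 31.2% and 33.0% of other cells. Cells were not thinned for these shares. Of the neuroendocrine list Scg2 was at 0 in EL1, and of the ductal list Cftr was at 0 in both libraries. There were 15 barcodes found in both libraries, of which 14 were kept as cells in EL1 and 1 in WTg. A total of 1 EL1 cell and 3 WTg cells held over 10000 genes. These 3 WTg cells all had Top2a and carried 6.36% of the members' UMIs in WTg on 1.35% of all its UMIs. Some values that rest on them are given with and without them, and the rest only with them.

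In a dividing cell the centromere, marked by a histone variant, carries an inner set of proteins through the whole cell cycle. On it an outer layer is assembled for mitosis, and this layer holds the ends of microtubules. The chromosomal passenger complex corrects wrong attachments, kinesin motors push and pull on microtubules, and after the chromosomes part the midzone and the contractile ring divide the cell. Many of these genes are known to be transcribed late, in G2 and mitosis, through promoters that hold a short element called CHR and often CCAAT boxes. The CHR is bound by the DREAM complex and, in G2, by B-MYB with MuvB and FOXM1, and CCAAT boxes are bound by NF-Y. The T antigen is known to act on this switch through the retinoblastoma family.

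The promoter letters of the members are shown first, because the same genes are then followed through the cell cycle. Windows from 250 bases before to 50 bases after the gene start, from RefSeq on GRCm38.p6, were at hand for 36 of the 40 members, all but Spc24, Incenp, Tpx2 and Kif20a. The CHR was searched as TTTGAA or TTCGAA and the CCAAT box as CCAAT, each on both strands. The sites below are from genes described later, namely those that rose most from early to late Top2a cells (Hmmr, Cenpa, Cenpf), the motor Kif18b, 2 subunits of well known complexes (Spc25, Kif23) and Cenpm, which was over 1.5-fold higher in WTg Top2a cells. Each site is given 5′ to 3′ on the gene's own strand with 12 bases on either side, and capitals mark the CHR letters.
Hmmr: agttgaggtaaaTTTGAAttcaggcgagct
Cenpa: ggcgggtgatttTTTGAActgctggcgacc
Cenpf: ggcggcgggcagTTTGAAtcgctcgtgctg
Kif18b: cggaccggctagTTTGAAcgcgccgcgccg
Spc25: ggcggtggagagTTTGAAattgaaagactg
Kif23: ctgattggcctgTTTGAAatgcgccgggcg
Cenpm: tgggcgttccagTTCGAAcgtggctttccc

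The Hmmr site lies at chr11:40733412-40733441 on the minus strand, and its first CHR letter is base 9 of the transcript. For Cenpa the site is chr5:30666890-30666919 on the plus strand, at base 17. The Cenpf site, chr1:189688067-189688096 on the minus strand, starts at base 3. Kif18b has it at chr11:102925104-102925133 on the minus strand, at base 4. In Spc25 it is chr2:69206172-69206201 on the minus strand, at base 25. The Kif23 site is chr9:61946780-61946809 on the minus strand, at base 3. Only that of Cenpm, among these 7, lies before the start, 83 bases upstream at chr15:82244402-82244431 on the minus strand, and only it has the letters TTCGAA.

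The stretches of 120 bases that end at the gene start were searched for CCAAT boxes, written in capitals as CCAAT or, on the other strand, ATTGG. They are shown for Hmmr, Cenpf, Kif18b and Spc25 of the genes above, and for Kif11. The CHR of Kif11 lies before the start and reads TTCAAA on this strand, also in capitals.
Hmmr: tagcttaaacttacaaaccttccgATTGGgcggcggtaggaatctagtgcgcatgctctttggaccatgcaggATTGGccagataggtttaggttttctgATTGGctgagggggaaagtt
Cenpf: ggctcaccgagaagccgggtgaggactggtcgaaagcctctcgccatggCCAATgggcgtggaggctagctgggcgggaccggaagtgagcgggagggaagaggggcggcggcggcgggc
Kif18b: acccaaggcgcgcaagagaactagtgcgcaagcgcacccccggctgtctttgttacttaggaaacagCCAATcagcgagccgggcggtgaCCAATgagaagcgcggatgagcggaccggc
Spc25: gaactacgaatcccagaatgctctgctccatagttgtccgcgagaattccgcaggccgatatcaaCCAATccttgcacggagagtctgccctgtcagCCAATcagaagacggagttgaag
Kif11: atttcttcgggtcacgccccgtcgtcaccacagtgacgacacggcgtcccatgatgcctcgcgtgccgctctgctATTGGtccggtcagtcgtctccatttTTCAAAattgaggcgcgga

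These stretches are chr11:40733438-40733557 for Hmmr, chr1:189688087-189688206 for Cenpf, chr11:102925125-102925244 for Kif18b and chr2:69206214-69206333 for Spc25, all on the minus strand, and chr19:37376262-37376381 on the plus strand for Kif11. Hmmr has 3 CCAAT boxes in this stretch, Kif18b and Spc25 have 2, and Cenpf and Kif11 have 1. The stretches of Cenpa and Kif23, not shown, have 2 and 1, and that of Cenpm has none. Over the whole windows, 25 of the 36 members (69.4%) held a CHR, against 21.7% of the 27025 genes with a window. In the 50 bases after the start, 15 members (41.7%) held one, against 2.87% of all genes, whereas before the start the numbers were 11 members (30.6%) and 19.6% of genes. A CCAAT box was found in 24 members (66.7%) and 41.1% of genes, and 19 members had both. An E2F motif (TTTCGCGC, TTTGGCGC, TTTCCCGC or TTTGCCGC, either strand) was found in Cenpm, Kif15 and Kif18a (8.33%), against 2.61% of all genes. None of the 3 motifs was found in the windows of Cenpp, Cenpt, Nuf2, Birc5 and Nusap1. These are matches of letters in a window and no evidence of binding.

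**Figure D1:**
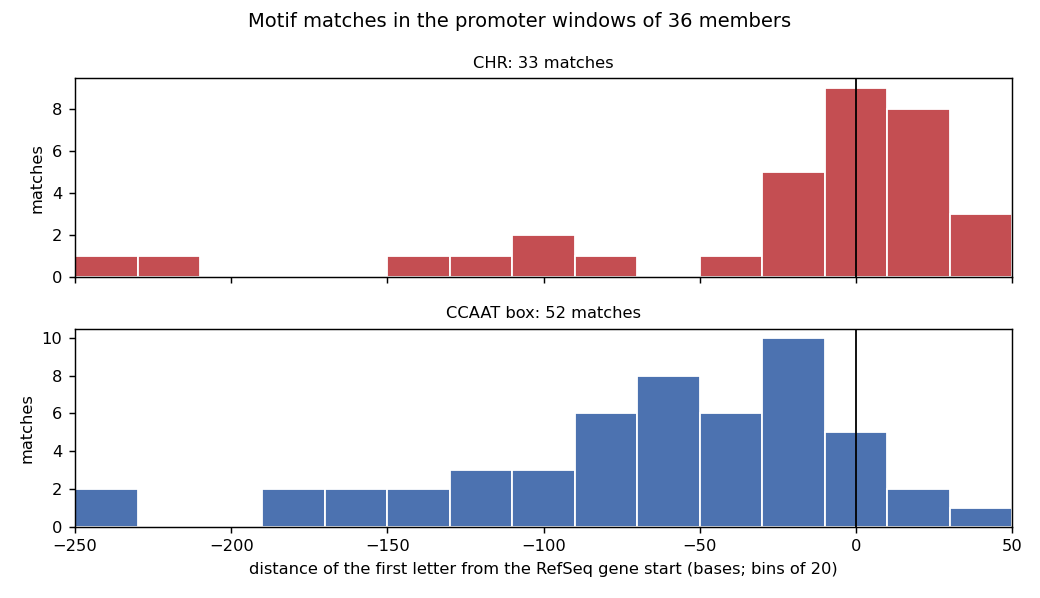
Number of CHR matches (top, 33) and CCAAT matches (bottom, 52) in the promoter windows of 36 members, by the distance in bases of the match's first letter from the RefSeq gene start, in bins of 20 bases. Ect2 and Prc1 have 2 overlapping windows each, so a site of theirs that lies in both is counted once for each start. CHR matches sit around the start, with a median distance of 3 bases, and CCAAT matches sit upstream, with a median of -53.5 bases.

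Where the members' UMIs lay was examined first. Top2a UMIs were found in 430 of the 1113 EL1 cells (38.6%) and 350 of the 905 WTg cells (38.7%), called Top2a cells below. They were deeper than the other cells, with medians of 39569 and 45054.5 UMIs against 21144 and 26806. With every cell thinned to 10000 UMIs and shallower cells left out (170 in EL1, 202 in WTg), Top2a was found in 26.9% of EL1 cells (24.1 to 29.9%, 254 of 943) and 29.3% of WTg cells (26.0 to 32.8%, 206 of 703), and these intervals overlap. No cell carrying neutrophil markers, a cell type that does not divide once mature, had a Top2a UMI (0 of 12 in EL1 and 0 of 7 in WTg), but a limit of 3 counts on so few cells allows a share with a UMI of up to 25% and 42.9%, and their medians of 2588.5 and 2805 UMIs were far lower.

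The 40 members together had 35917 UMIs in EL1 and 31807 in WTg, and none had fewer than 81. Of these UMIs, 91.4% in EL1 (32812) and 90.2% in WTg (28676) fell in Top2a cells. Their summed level was 1622 CPM in the Top2a cells of EL1 against 175 CPM in its other cells, and 1634 CPM against 202 CPM in WTg. On the log2 scale the Top2a cells were higher by 3.21 in EL1 (3.16 to 3.27) and 3.01 in WTg (2.96 to 3.07). With each cell weighted equally the difference was 3.06 and 2.53. Neutrophil-marked cells held 3 member UMIs in each library.

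All 40 members were more than 2-fold higher in Top2a cells than in other cells in both libraries, where 6.72% of the 14872 genes counted in EL1 and 6.38% of the 14914 in WTg passed that fold. The members' median log2 ratio was 3.79 in EL1 and 3.73 in WTg, beside 0.04 and 0.09 over all genes counted. From one library to the other the members kept much the same order (Pearson r 0.92 and Spearman rho 0.89 across the 40 genes, which share libraries and depth and are not independent).

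Kif18b, a kinesin that shortens microtubules, stood furthest apart. It had 154 UMIs in the Top2a cells of EL1 and 1 in all its other cells, and 142 and 1 in WTg, a log2 ratio of 7.08 (4.58 to 12.39) and 6.97 (4.47 to 12.28). Nusap1, which binds and bundles spindle microtubules, was at 47.9 CPM against 0.56 in EL1 and 45.9 against 0.78 in WTg, a log2 difference of 6.41 (5.52 to 7.47) and 5.89 (5.07 to 6.85). Kif11, the motor that pushes the spindle poles apart, was higher by 6.00 and 4.90. Large ratios were also found for Spc25 of the NDC80 complex (4.96 and 4.91) and for Birc5, or survivin, of the passenger complex (4.98 and 4.71), the other two among the 5 highest by the lower of the libraries' ratios.

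At the other end stood inner kinetochore genes and Ckap5. Cenpt, whose protein links the centromere to the outer layer, was at 7.42 CPM in Top2a cells and 3.21 in other cells of EL1, and at 7.81 and 2.85 in WTg, with log2 ratios of 1.21 (0.76 to 1.67) and 1.46 (0.96 to 1.98). Cenpq, of the CENP-O group, gave 1.66 and 1.33. For Ckap5, a microtubule polymerase that also works outside mitosis, the ratios were 1.64 and 1.47. Cenpw, the histone-fold partner of Cenpt, gave 1.96 and 1.70, and Cenph 2.45 and 1.66. Thus 72.5% of the Cenpt UMIs in EL1 and 75.7% in WTg lay in Top2a cells, against 99.4% and 99.3% of the Kif18b UMIs.

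**Figure D2:**
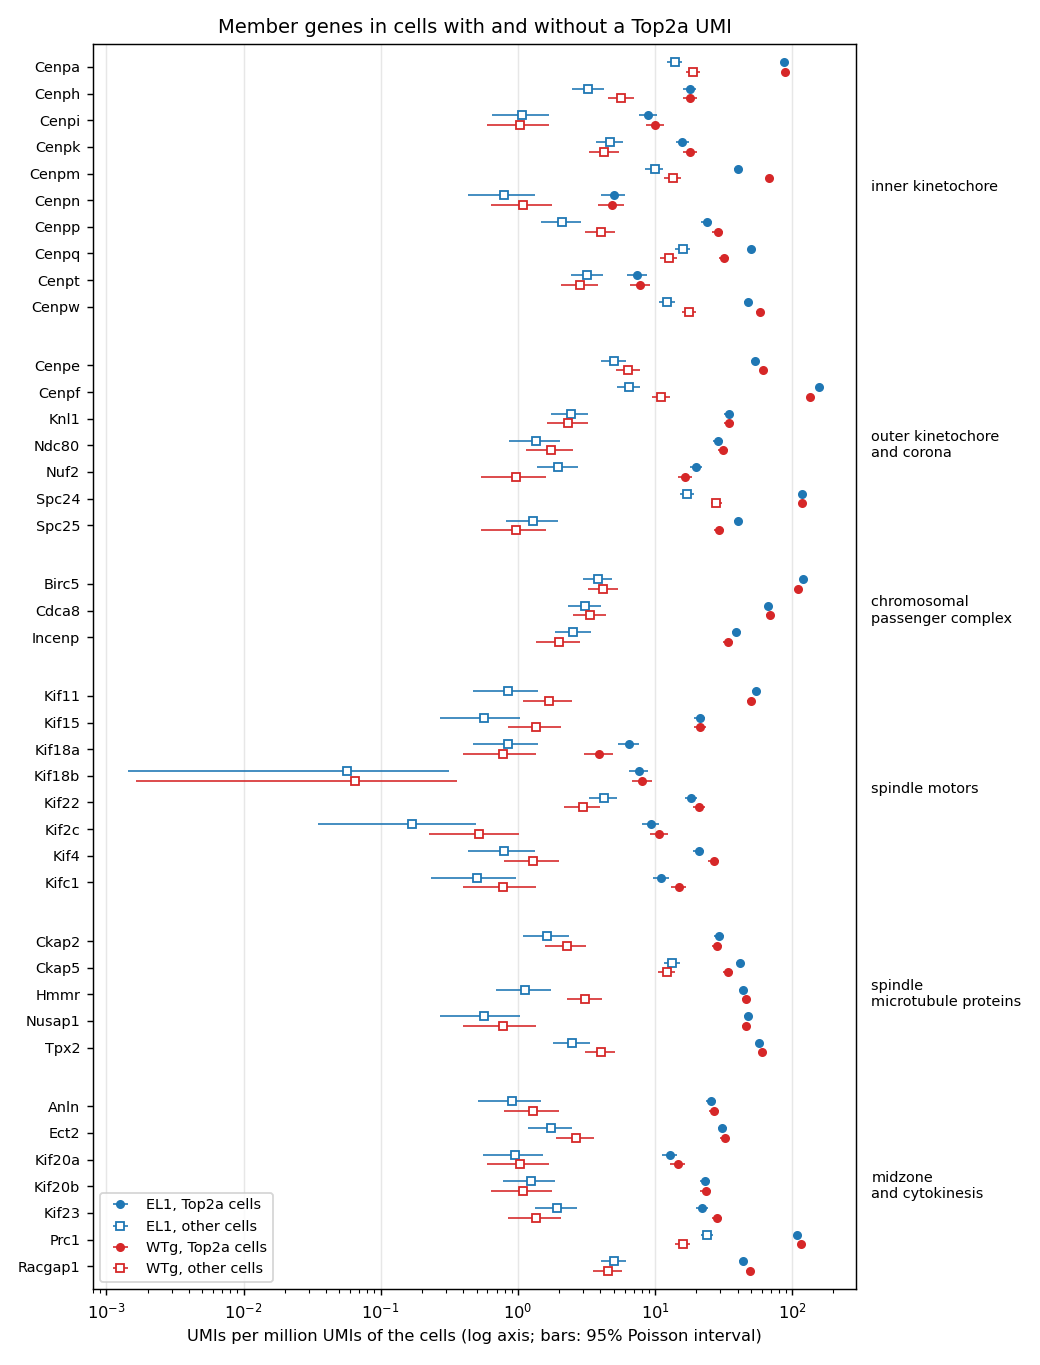
CPM (log axis) of each of the 40 members in cells with a Top2a UMI (filled circles) and in all other cells (open squares), in EL1 (blue) and WTg (red), with exact 95% Poisson intervals as bars, grouped by role. In every member the Top2a cells lie above the other cells, most of all for Kif18b, and least for Cenpt, Cenpq and Ckap5.

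By role, the median log2 ratio of Top2a cells over other cells was 2.24 in EL1 and 2.11 in WTg for the 10 inner kinetochore genes. It was 3.83 and 3.90 for the 7 genes of the outer kinetochore and corona, 4.43 and 4.35 for the 3 passenger genes, 4.98 and 4.32 for the 8 spindle motors, 4.54 and 3.89 for the 5 other spindle microtubule proteins, and 3.74 and 3.82 for the 7 genes of midzone and cytokinesis. The inner kinetochore genes thus had the lowest median of the 6 groups in both libraries. A list of 49 further genes of the same machinery that are not members, among them checkpoint, cohesin-protection and condensin genes, had medians of 2.88 and 2.79, and 39 and 41 of the 49 passed 2-fold. Those with little difference included Zwint (0.09 and 0.11), a partner of Knl1, and Cenpb (0.46 and 0.29), which binds centromere DNA. Among those with a large one was Aurkb (5.88 and 6.42), the kinase of the passenger complex.

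The members' level varied widely among Top2a cells. Cells with 1 Top2a UMI (133 in EL1, 97 in WTg) held 221 and 280 CPM of the members, beside 175 and 202 in cells with none, and cells with at least 3 (245 and 212) held 2361 and 2278 CPM. Single Top2a cells ranged from 0 to 18416 CPM with a median of 563 in EL1, and from 0 to 12848 CPM with a median of 518 in WTg. Other cells had medians of 111 and 124 CPM.

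After thinning to 10000 UMIs, Top2a cells of both libraries had a median of 4 of the 40 members, with up to 34 in EL1 and 33 in WTg, and other cells had a median of 1, with up to 17 and 16. At least 10 members were found in 130 of 396 thinned Top2a cells in EL1 and 99 of 315 in WTg, and in 5 of 547 and 5 of 388 other cells. In 44 and 35 of the thinned Top2a cells no member was found.

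**Figure D3:**
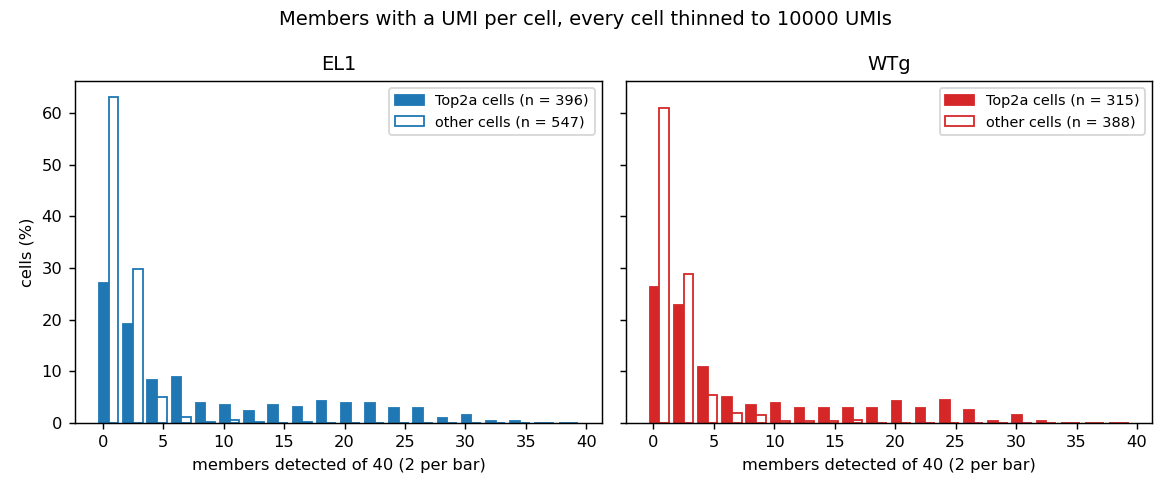
Share of cells (%) by the number of members with a UMI, in bars of 2, after every cell was thinned to 10000 UMIs, for Top2a cells (filled) and other cells (open) of EL1 (left, 396 and 547 cells) and WTg (right, 315 and 388 cells). In other cells 63.1% (EL1) and 61.1% (WTg) had 0 or 1 member, and the Top2a cells had a long tail up to 34 and 33 members.

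Subunits that work in 1 complex were seldom all found in the same thinned cell. All 4 subunits of NDC80 (Ndc80, Nuf2, Spc24, Spc25), which grips the microtubule end, were found in 5.30% of Top2a cells in EL1 (3.31 to 7.99%) and 3.49% in WTg (1.76 to 6.16%), and no subunit was found in 42.2% and 43.8%. Birc5, Cdca8 (borealin) and Incenp, 3 passenger subunits, were all found in 14.9% (11.5 to 18.8%) and 12.1% (8.68 to 16.2%). Kif23 and Racgap1, which form centralspindlin at the midzone, were both found in 8.84% (6.23 to 12.1%) and 11.1% (7.86 to 15.1%). The intervals of the libraries overlapped for each complex. At this depth a missing UMI does not show that the gene was silent, as Kif23 was found in 15.9% and 15.6% of thinned Top2a cells.

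The Top2a cells were next put in order along the cell cycle by genes that are not members. For each cell the UMIs of 11 late genes, known from G2 and mitosis (Ccnb1 and Cdc20 among them), were set against those of 16 early genes of DNA replication (the Mcm genes and Pcna among them), and the cells of each library were split into 3 sets of equal size, called early, middle and late. Cells with fewer than 5 UMIs over both lists, 23 in EL1 and 15 in WTg, were left out. The sets are ranges of a continuous score and not cell types, and 84 cells of EL1 and 58 of WTg lay within 0.5 log2 units of the lower boundary, 28 and 29 of the upper. The boundaries were set within each library, at log2 scores of -4.22 and -2 in EL1 and -4.52 and -2.32 in WTg. A set of WTg therefore covers other scores than the same set of EL1. How far this bears on ratios between the libraries within a set was not tested. The late list is made of genes of the same phase as the members, so a rise along this order describes timing and is no separate evidence of it.

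The summed level of the members was 371 CPM in the early set, 623 CPM in the middle set and 3512 CPM in the late set of EL1, and 381, 546 and 3720 CPM in WTg. The late sets held 80.8% and 82.0% of the members' UMIs. Top2a itself went from 92.7 to 137 to 475 CPM in EL1 and from 111 to 141 to 575 CPM in WTg. Median depths were 40921.5 UMIs in the early and 47102 in the late set of EL1, and 47901 and 47473 in WTg. All 40 members were highest in the late set in both libraries, and 37 in EL1 and 35 in WTg rose at both steps. The exceptions were Cenpm, Cenpt and Kif18a in EL1 and Cenph, Cenpk, Cenpm, Cenpn and Spc24 in WTg. How many of all genes were highest in the late set, or rose at both steps, was not counted.

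From early to late, 38 of the 40 members were more than 2-fold higher in each library, against 9.78% of 13135 genes counted in EL1 and 11.5% of 12958 in WTg. No member was 2-fold lower, against 2.56% and 1.69% of genes. Macrophage markers climbed along the same order, from 45.8 to 447 CPM in EL1 and from 90.7 to 551 in WTg, with 8 of 8 genes past 2-fold in both. With immune, stromal and red cell marked cells left out, 38 members were again past 2-fold in each library, and the members' medians were 3.40 and 3.94. The members' median log2 ratio was 3.43 in EL1 and 3.88 in WTg, beside 0.06 and 0.14 over all genes, and 2.66 and 2.94 when cells were thinned first. As with the Top2a cells, the order of the members was alike in the 2 libraries (Pearson r 0.91 and Spearman rho 0.91 across 40 genes).

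The steepest members were Hmmr, Cenpa, Cenpf, Kif20a and Kif2c. Hmmr, which anchors microtubules at the spindle poles, went from 0.32 CPM (2 UMIs) to 9.47 to 109 CPM in EL1 and from 1.35 to 7.01 to 120 in WTg, with log2 ratios of late over early of 8.39 (6.53 to 11.43) and 6.48 (5.49 to 7.70). Cenpa, the histone H3 variant that marks the centromere, went from 3.25 to 15.4 to 219 CPM and from 0.84 to 6.06 to 239, ratios of 6.07 (5.44 to 6.79) and 8.14 (6.92 to 9.77). Cenpf, a large coiled-coil protein of the corona, rose from 5.20 to 402 CPM and from 3.21 to 359 CPM, by 6.27 and 6.81. In these 3, as shown above, TTTGAA begins within the first 20 bases of the transcript. The only CHR match of Kif2c lies before the start, at -103 bases and on the other strand, and Kif20a has no window. Cenpe, next in steepness with a mean ratio of 5.42, had no CHR in its window. Kif20a, a midzone kinesin, gave ratios of 6.01 and 6.81, and Kif2c, a microtubule depolymerase at centromeres, 5.56 and 5.38. These 2 had between 2 and 4 UMIs in each early set, so their ratios have wide intervals (4.44 to 8.29 for Kif20a and 3.99 to 7.85 for Kif2c in EL1).

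The 5 members with the lowest mean of both ratios were all of the inner kinetochore. Cenph stayed at 15.3, 16.0 and 21.8 CPM over the 3 sets of EL1 and at 15.2, 14.4 and 23.8 in WTg, so that late over early was 0.51 (0.14 to 0.89) and 0.65 (0.26 to 1.04). When cells were thinned first, that of WTg was -0.09 (-1.29 to 1.11). Cenpk, its partner in the CENP-H, I, K and M complex, gave 1.09 and 0.76, and Cenpm, of the same complex, 1.45 and 1.41. Cenpq gave 1.84 and 1.33. Cenpt, the last of them, had unlike ratios in the libraries, with 0.71 (0.15 to 1.29) in EL1 and 2.46 (1.69 to 3.33) in WTg, on 41 and 16 UMIs in the early sets.

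Within the inner kinetochore, then, Cenpa rose most, and Cenpp came next, with 3.41 in EL1 and 2.94 in WTg. The 10 genes of that group had a median ratio of 1.80 in EL1 and 1.49 in WTg, while the outer kinetochore and corona had 3.91 in both, the passenger genes 3.39 and 3.86, the motors 3.55 and 4.15, the spindle microtubule proteins 3.94 and 3.97, and midzone and cytokinesis 3.54 and 4.04. Of the 49 other genes of the machinery 36 and 39 passed 2-fold, with medians of 2.20 and 2.61.

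**Figure D4:**
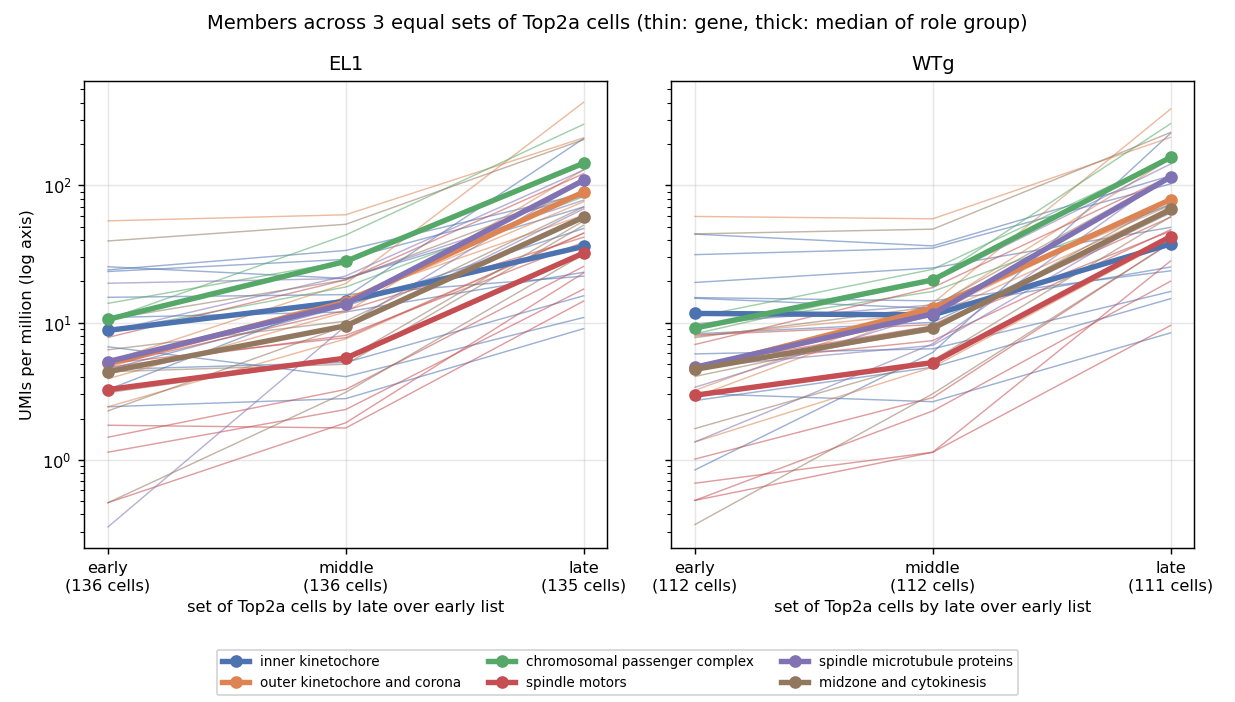
CPM (log axis) in the early, middle and late set of Top2a cells, for EL1 (left, 136, 136 and 135 cells) and WTg (right, 112, 112 and 111 cells). Thin lines are single members and thick lines the median of each role group. Lines climb mainly from the middle to the late set, and the inner kinetochore median (dark blue) climbs least.

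Members with and without a CHR in their window overlapped widely in this ratio. Averaged over the libraries, the log2 ratio of late over early had a median of 3.77 in the 25 members with a CHR (1.43 to 7.43) and 3.18 in the 11 without (0.58 to 5.42). Cenpm had the lowest value of those with a CHR, and its site, shown above, lies before the start, as does that of Kif11 (4.02). Birc5 and Nusap1, in whose windows none of the 3 motifs was found, had mean ratios of 4.90 and 4.76.

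EL1 and WTg were then set side by side. Summed over the members, WTg was at 964 CPM and EL1 at 946 CPM over all cells, a log2 difference of 0.03 (0.00 to 0.05), and in Top2a cells the difference was 0.01 (-0.01 to 0.03). Without the 4 cells of over 10000 genes these values were -0.05 and -0.07, and without the barcodes found in both libraries the Top2a cells gave -0.04. The sign of the summed difference thus changed when a few cells were left out, and in Top2a cells also under other alternatives given below. In Top2a cells the members' median log2 ratio was 0.06, beside -0.14 over the 14812 genes counted, and over all cells 0.08 beside -0.14. Scaling by the trimmed mean of M-values (TMM) moved every ratio up by 0.14 in Top2a cells and by 0.13 over all cells, so the ratios below are to be read against a median gene at -0.14.

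Marker lists of other cell types also differed between the libraries, and their part in the members' differences was not tested. In Top2a cells the 8 macrophage markers summed to 214 CPM in EL1 and to 356 in WTg, the 5 endothelial markers to 1.24 and 26.5 CPM, and the 6 fibroblast markers to 0.40 and 14.0 CPM, while the 5 red cell markers were at 56.8 and 6.55 CPM. The neuroendocrine list summed to 3584 and 2609 CPM. Gene by gene, however, 8 of its 10 genes were higher in WTg and 2 lower, with a median log2 ratio of 1.01. Macrophage-marked cells were 6 of the Top2a cells in EL1 (1.40%) and 13 in WTg (3.71%). With immune, stromal and red cell marked cells left out, the members' summed difference in Top2a cells was -0.02 (-0.04 to 0.01).

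Few members differed in level beyond 1.5-fold. Over all cells 1 of 40 was higher in WTg (Cenpm), against 15.7% of 16167 genes, and 1 was lower (Kif18a), against 17.1%. In Top2a cells 1 was higher (Cenpm), against 12.9% of genes, and 2 were lower (Cenpq and Kif18a), against 17.6%. Of the 40, 27 were higher and 13 lower in WTg Top2a cells. The split of all genes by direction was not counted, but their median log2 ratio was -0.14. The counting interval lay above 0 for 9 members, against 18.4% of the 14812 genes counted, and below 0 for 8, against 36.7%.

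Cenpm stood out. It had 816 UMIs in the Top2a cells of EL1 and 1193 in those of WTg, 40.3 CPM and 68.0 CPM, which is a log2 ratio of 0.75 (0.62 to 0.88). The difference was there in each set along the cell cycle, with 0.79 (0.50 to 1.08) in the early, 0.79 (0.46 to 1.12) in the middle and 0.75 (0.59 to 0.92) in the late set. The sets are parts of the same cells, with boundaries that differ between the libraries, and are no separate evidence of the difference. In thinned Top2a cells it was found in 29.0% (24.6 to 33.8%) in EL1 and 37.8% (32.4 to 43.4%) in WTg. Other cells showed the same direction, with 9.93 CPM for EL1 and 13.5 for WTg. Over the 12 alternatives run for it the ratio stayed between 0.45 and 0.89. The gene is at chr15:82233779-82244748 on the minus strand (GENCODE M21, GRCm38), and no other counted gene overlaps it.

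Cenpq went the other way, with 1018 UMIs in EL1 and 560 in WTg, 50.3 against 31.9 CPM, with a log2 ratio of -0.66 (-0.81 to -0.51). By set, with boundaries that differ between the libraries, it was -0.30 (-0.67 to 0.06) in the early and -0.42 (-0.75 to -0.10) in the middle set. In the late set it was -0.81 (-1.01 to -0.62). Thinned, it was found in 35.1% of Top2a cells in EL1 and 19.7% in WTg. Its gene, at chr17:40923051-40935047 on the minus strand, overlaps Mut on the opposite strand. Kif18a, a kinesin that steadies chromosomes at the spindle equator, had 130 and 69 UMIs, 6.43 and 3.93 CPM, a ratio of -0.71 (-1.15 to -0.28). Of its WTg UMIs 12.3% came from a single cell, and without the cells of over 10000 genes the ratio was -1.01. Over the alternatives Kif18a ranged from -1.70 to -0.57, and Cenpq from -1.25 to -0.52, in both cases with thinned cells at the lower end. It lies at chr2:109280738-109341747 on the plus strand and overlaps Mettl15 on the opposite strand. Under TMM scaling only Cenpm remained past 1.5-fold in Top2a cells.

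Spc25 was at 40.4 CPM in EL1 and at 29.2 in WTg, with a log2 ratio of -0.47 (-0.63 to -0.31). Its partners in NDC80 lay nearer 0, with 0.10 (-0.07 to 0.27) for Ndc80, -0.27 (-0.50 to -0.05) for Nuf2 and -0.02 (-0.10 to 0.07) for Spc24. Cenpf was at 158 and 135 CPM, a ratio of -0.23 (-0.31 to -0.15), and 11.9% of its EL1 UMIs came from 1 cell. Knl1, which recruits checkpoint proteins, was level at 34.5 and 34.7 CPM, and Cenpe, the corona kinesin that carries chromosomes to the equator, was at 53.4 and 61.4 CPM, a ratio of 0.20 (0.08 to 0.33) that was 0.07 without the cells of over 10000 genes.

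In the inner kinetochore, Cenpa summed over Top2a cells was at 87.7 and 88.2 CPM, a ratio of 0.01 (-0.09 to 0.11). Its ratio differed by set, but each library had its own boundaries. The late list that orders the cells was itself at 30.5 CPM in EL1 and 22.0 in WTg in the early set. In the middle set it was at 125 and 86.3 CPM. Cenpa, WTg over EL1, was at -1.94 (-3.71 to -0.49) in the early set, on 20 and 5 UMIs. It was at -1.34 (-1.97 to -0.75) in the middle set, on 99 and 32 UMIs, and at 0.13 (0.02 to 0.23) in the late set, which held most of its UMIs. Cenpw was at 47.4 and 57.9 CPM, with 0.29 (0.16 to 0.42), and Cenpp at 23.9 and 28.6 CPM, with 0.26 (0.08 to 0.44), its gene overlapping 6 counted genes on the opposite strand. Cenph, Cenpi, Cenpk, Cenpn and Cenpt lay between -0.04 and 0.19, each with an interval that held 0. The group as a whole made up 18.8% of the members' UMIs in EL1 Top2a cells (18.4 to 19.2%) and 20.4% in WTg (19.9 to 20.9%), and the outer kinetochore and corona made up 28.0% (27.5 to 28.5%) and 26.0% (25.5 to 26.5%).

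Among the passenger genes, Birc5 was at 121 and 110 CPM, a ratio of -0.13 (-0.22 to -0.05) that was 0.01 under TMM scaling. By set, with boundaries that differ between the libraries, it was -1.09 (-1.42 to -0.76) in the middle and 0.01 (-0.08 to 0.11) in the late set. Incenp, the scaffold of the complex, was at 39.3 and 34.3 CPM, a ratio of -0.20 (-0.35 to -0.04) that turned to 0.18 with each cell weighted equally. Cdca8 was level (67.0 and 68.8 CPM, 0.04, -0.08 to 0.15).

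Of the spindle motors, Kifc1, a minus-end directed kinesin that clusters poles, was at 11.0 and 14.9 CPM, a ratio of 0.44 (0.17 to 0.70), and Kif4, a chromosome-bound kinesin, at 20.9 and 26.9 CPM, a ratio of 0.37 (0.17 to 0.56). Kif11 gave -0.11 (-0.24 to 0.01), Kif15, its helper, 0.02 (-0.19 to 0.22), Kif18b 0.09 (-0.25 to 0.43), Kif22, which pushes chromosome arms outward, 0.19 (-0.02 to 0.40), and Kif2c 0.20 (-0.10 to 0.50). Tpx2, which activates Aurora A and seeds microtubules, was at 57.6 and 60.5 CPM (0.07, -0.05 to 0.19). Hmmr (0.07), Nusap1 (-0.06) and Ckap2, a microtubule stabiliser (-0.06), had intervals that held 0. Ckap5 was at 41.6 and 33.9 CPM, a ratio of -0.29 (-0.45 to -0.14) that was 0.06 with each cell weighted equally.

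At the midzone, Kif23 was at 22.0 and 28.4 CPM, a ratio of 0.37 (0.18 to 0.55). Its centralspindlin partner Racgap1 was at 43.8 and 49.0 CPM, a ratio of 0.16 (0.03 to 0.30). By set, again with boundaries that differ between the libraries, Racgap1 was at -0.65 (-1.09 to -0.22) in the middle and 0.37 (0.22 to 0.52) in the late set. Prc1, which bundles the midzone microtubules, was at 109 and 117 CPM (0.10, 0.01 to 0.19). Ect2, the exchange factor that switches on RhoA at the cleavage site (0.05), Anln, the anillin scaffold of the contractile ring (0.07), Kif20a (0.19) and Kif20b (0.01) all had intervals that held 0. Without the cells of over 10000 genes Kif23 was at 0.22 (0.03 to 0.42) and Prc1 at 0.02 (-0.07 to 0.11), and in Top2a cells both kept their sign under each alternative run for them. Over all cells Prc1 changed sign under 4 alternatives.

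**Figure D5:**
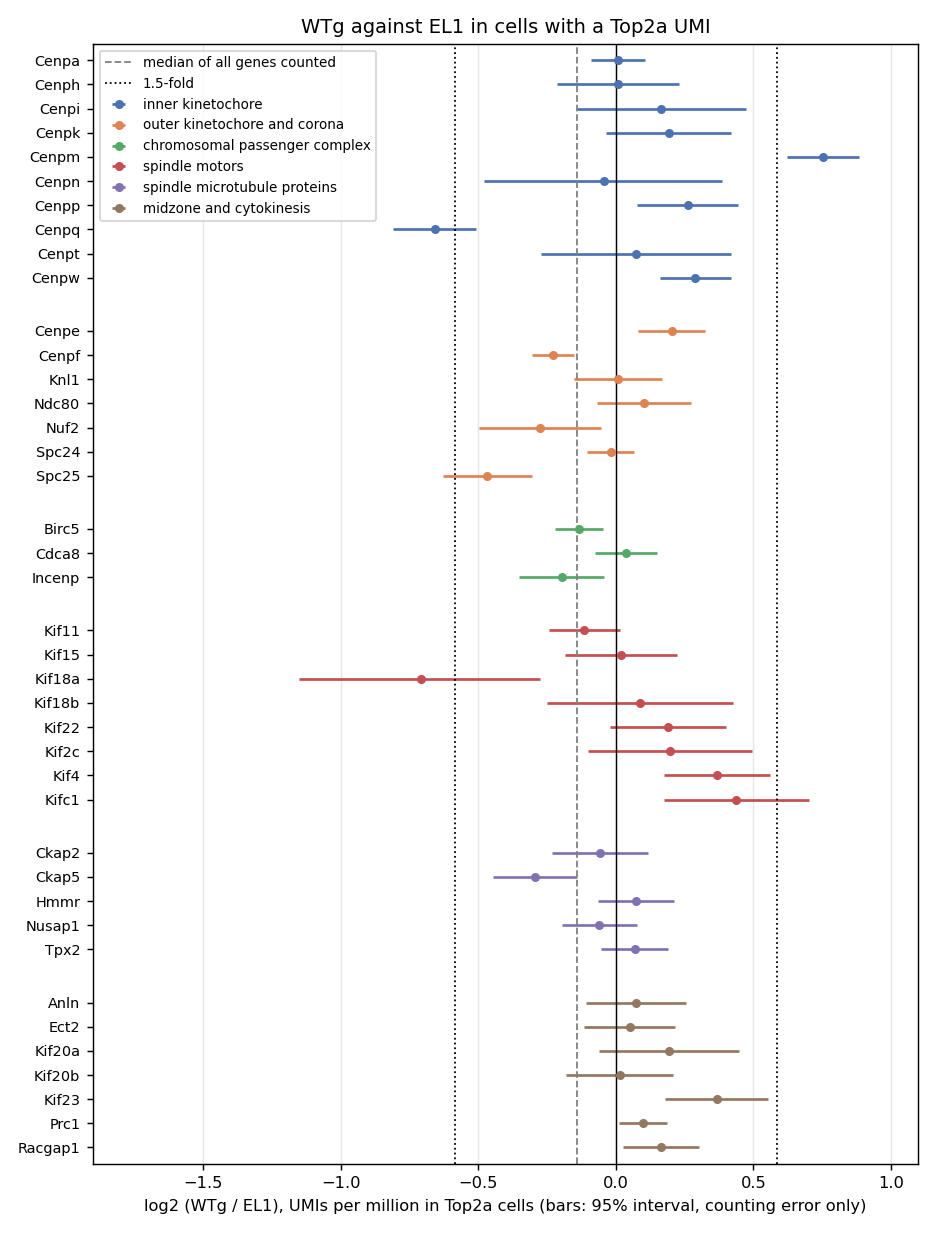
Log2 ratio of WTg over EL1 of each member in Top2a cells, with 95% intervals that cover counting error only, coloured by role. The solid line is 0, the dashed line the median of all genes counted (-0.14) and the dotted lines 1.5-fold. Cenpm (0.75) lies beyond the right dotted line, and Cenpq (-0.66) and Kif18a (-0.71) lie beyond the left.

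In Top2a cells the 49 other genes of the machinery summed to 1584 CPM for EL1 and 1588 for WTg. Their median log2 ratio was -0.10, beside -0.14 over all genes counted, with 18 higher and 31 lower. The split of all genes by direction was not counted. Past 1.5-fold, 2 of the 49 were higher, against 12.9% of all genes, and 5 were lower, against 17.6%. Mad1l1, a checkpoint protein (1.21, with a lower bound of 1.004), and Espl1, or separase, which cuts cohesin (0.66, 0.32 to 1.01), were more than 1.5-fold higher in WTg. Sgo1, which protects cohesin at the centromere, was lowest (-0.99, -1.20 to -0.77), at 29.4 CPM in EL1 beside 14.8 in WTg, and Cenpo, Cenpl, Cenps and Spdl1 were also more than 1.5-fold lower. Of these, Cenpo (-0.76) is in the same CENP-O group as Cenpq (-0.66), Cenpp (0.26) and Cenpu (-0.26, -0.50 to -0.02).

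Barcodes removed by the filter, 508 in EL1 and 583 in WTg, held the members at 563 CPM (521 to 607) and 518 CPM (486 to 552), so that WTg over EL1 was -0.12 on the log2 scale (-0.26 to 0.02). Of the members, 11 overlap a counted gene on the opposite strand and Anln overlaps 1 on its own strand. Whether these overlaps bear on the members' values was not tested.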

How the data were processed

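The values used are raw UMI counts of genes in barcodes, as deposited. The authors produced them by Cell Ranger 6.0.2, named in the file headers, on GRCm38. Seurat 4.0.5 and R 4.1 are named in the submitters' processing notes. The annotation release and the counting of introns are not given in the sources used here. A dense copy of the counts holds the same values of the 40 members for its barcodes, and other genes were not compared.

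Barcodes were kept as cells from 500 genes and 1000 UMIs upward, with mitochondrial UMIs up to 20%. Doublet calls (Scrublet, 4 in each library) were removed only as an alternative. Counts were summed over cells with Python 3.11.15, numpy 2.4.6, scipy 1.17.1 and pandas 2.3.3, and TMM factors came from edgeR 4.0.16. Genes with at least 10 UMIs over the 2 groups compared were counted, and all 40 members passed. Poisson, conditional binomial and Clopper-Pearson intervals are exact. No cells were clustered. The steps were tested on simulated data.

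By rule the text names 26 members: in each role group the one with most UMIs and the highest and lowest log2 ratio of WTg over EL1 in Top2a cells, and the 5 highest and 5 lowest for Top2a cells over other cells and for late over early. The remaining members are given with their group, and genes that are no members were named after their values were seen. Members and lists were chosen with earlier results of these data known.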

Additional observations from a re-analysis of the deposited data

How the results depend on the processing

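Of the 251 alternative values of the main results 200 stayed within their counting interval (counts within 1.5 times), as did 1623 of the 1846 for single members. Among log2 values, 14 of the 126 for the members together and 77 of the 1846 for single members changed sign, but in only 2 and 7 of these did the reported interval lie clear of 0. The members together changed sign only in WTg over EL1, and 15 of the 26 members named by rule did so in that comparison in Top2a cells. The count of members past 2-fold stayed between 39 and 40 for Top2a cells over other cells and between 35 and 38 for late over early. No paired analysis was possible because EL1 and WTg are single libraries without replicate numbers. Where a value moved below, the cause was not tested.

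The share of the members' UMIs in Top2a cells was 90.9% in EL1 and 89.4% in WTg over all deposited barcodes, 90.5% in WTg under the stricter cell filter, 89.5% in WTg with the barcodes of the dense table and again without cells of over 10000 genes, 86.6% and 84.8% with at least 3 Top2a UMIs, 92.7% in both with Mki67 in place of Top2a, and 80.1% and 78.0% in thinned cells. The members' summed log2 difference, WTg over EL1, was 0.051 in all cells and 0.035 in Top2a cells under the stricter filter, -0.053 and -0.068 with the dense table and again without cells of over 10000 genes, 0.16 and 0.15 under TMM scaling, and 0.11 in all cells weighted equally. In Top2a cells it was -0.018 without immune, stromal or red cell marked cells, -0.051 with at least 3 Top2a UMIs, -0.086 in thinned cells and -0.039 without barcodes found in both libraries, an alternative chosen after seeing the data. Members past 1.5-fold numbered 1 in all cells under the stricter filter, 1 in all and in Top2a cells under TMM, and 5 in thinned Top2a cells.

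The summed log2 ratio of Top2a cells over other cells was 2.94 in WTg with the dense table and again without cells of over 10000 genes, and 3.31 in EL1 without barcodes found in both libraries. For EL1 and WTg it was 3.06 and 2.53 with cells weighted equally, 3.61 and 3.31 with at least 3 Top2a UMIs, 3.46 and 3.42 with Mki67, and 3.45 and 3.096 in thinned cells. The members' median of this ratio was 3.25 in EL1 and 2.88 in WTg with cells weighted equally, and 4.52 in WTg with Mki67. Their median of late over early was 2.66 and 2.94 in thinned cells. Top2a was found in 12.7% and 14.95% of cells thinned to 2000 UMIs, in 39.97% and 36.4% of those thinned to 20000, and in 38.6% and 38.7% without thinning. With the promoter window cut to the part before the start, 11 members held a CHR. Where the reported interval lay clear of 0, signs turned for Birc5 under TMM (0.0035 in all cells, 0.0054 in Top2a cells), for Incenp (0.24 and 0.18) and Ckap5 (0.014 and 0.057) with cells weighted equally, and for Cenph late over early in WTg in thinned cells (-0.085).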
